A study of Rattus norvegicus with 21 samples.

Results

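Astrocytes taken from postnatal day 7 (P7) rat forebrain were grown for 7 days in 10% foetal calf serum and then for 7 days in medium with the growth factor HBEGF, and were compared with astrocytes of the same age that had seen HBEGF medium but no serum. The arrays were chosen by their titles: 3 arrays of serum-withdrawn cultures (withdrawn P7 cultures) and 3 arrays of cultures without serum (HBEGF P7 cultures), 6 of the 21 arrays of the series. The 14217 genes counted below are all those with a probe set of a single gene symbol, each read from 1 probe set. Probe sets without a symbol or with several are left out of the gene counts. In both groups the cells came from Sprague Dawley rats and were isolated by immunopanning, in which cells are held on a dish coated with an antibody, here against the integrin ITGB5. The HBEGF P7 cultures were kept for 7 days with HBEGF, at 5 ng/ml per the labels. The withdrawn P7 cultures spent 7 days in serum, were washed 3 times with buffered saline and were kept for another 7 days in base medium with HBEGF, whose dose there is not given in the sources used here. They were therefore 14 days in culture at harvest against 7 days, and serum history and time in culture cannot be told apart in this comparison. For the HBEGF P7 cultures 1 label, the characteristics, reads p1; title and source name read P7, and the title was followed.

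The other 5 groups, with 3 arrays each, were cells lysed straight after panning at P1 or P7 (fresh cells), P1 cells kept 7 days in HBEGF (HBEGF P1 cultures), P7 cells harvested at the end of 7 days in serum (serum P7 cultures), and MD cultures, made from P1 forebrain by the method of McCarthy and de Vellis and harvested after 7 days. They are used here for levels beside the main comparison. The labels call the arrays of a group biological replicates without naming animals, so p-values rest on the spread between arrays inside groups. That spread was estimated over all groups of the series together, and not from the compared groups alone. The median standard deviation of a gene was 0.23 inside the HBEGF P7 group and between 0.14 and 0.19 inside the other groups. The shared estimate can therefore be too small for the HBEGF P7 group. How many animals were pooled for an array is not given in the sources used here.

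Astrocytes are the glial cells that take up transmitter, buffer potassium and contact vessels and synapses. In the healthy brain they meet few plasma proteins, because the vessel wall keeps these out. After injury or inflammation they become reactive, with more intermediate filament, complement and acute-phase genes, and serum is also a mitogen and a classical stimulus of contractile and matrix genes in cultured cells. HBEGF acts through the EGF receptor and is used to keep purified astrocytes alive without serum.

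Levels are log2 of the deposited array intensity, for which the median over all probe sets and arrays was 7.11. A difference is withdrawn minus HBEGF P7 in log2, with its standard error (SE) from limma. A gene was called when its adjusted p was under 0.05 and its log2 difference was at least 1, which is 2-fold, in either direction; "rose" and "fell" are used for called genes. Values of single arrays are given in the order of replicates 1, 2 and 3.

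The withdrawn cultures differed from the HBEGF P7 cultures in 1664 of 14217 genes, 11.7%. Of these, 894 rose, 6.29% of all genes, and 770 fell, 5.42%. The arrays of the groups did not overlap for 6252 of all 14217 genes, 44%, and for 1555 of the 1664 called genes, whose call already favours groups that lie apart. The median log2 difference over all genes was 0.01, the median absolute difference 0.31 and the median SE 0.17. The spread was uneven: Spearman correlations inside the HBEGF P7 group ran from 0.952 to 0.975, and HBEGF P7 replicate 2 stood farthest from the withdrawn arrays, with a median correlation of 0.911 against 0.955 and 0.959 for the other HBEGF P7 arrays. Inside the withdrawn group they ran from 0.972 to 0.995, with replicates 1 and 2 close together and replicate 3 apart. The called genes numbered 1269 with HBEGF P7 replicate 2 omitted and 1974 with HBEGF P7 replicate 3 omitted, which were the extremes when 1 array was left out. Leaving out 1 array also moved the fold by over 1.5 times for 75 of the 185 called genes chosen for naming, for 51 of them with HBEGF P7 replicate 2 omitted, 38 with HBEGF P7 replicate 3 and 19 with withdrawn replicate 3. The number of called genes was 953 without HBEGF P7 replicate 2 and withdrawn replicate 3 together, and 895 when the 6 arrays were fitted alone, without the spread of the other groups.

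**Figure D1:**
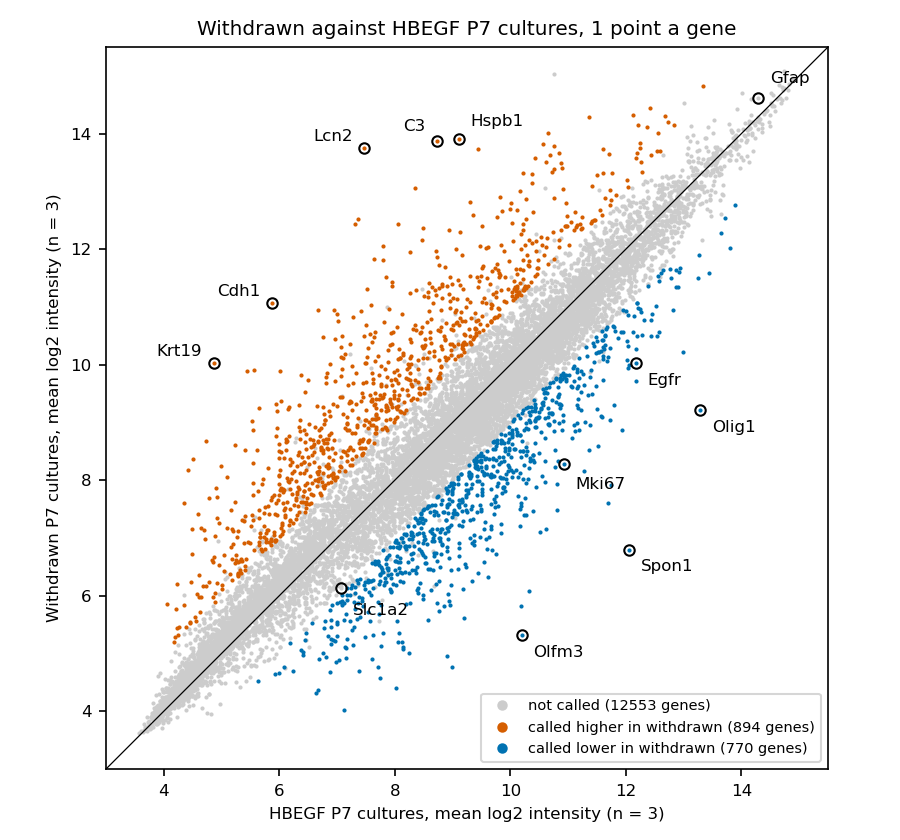
Mean log2 intensity of each gene in the withdrawn P7 cultures (vertical axis) against the HBEGF P7 cultures (horizontal axis), 3 arrays each; orange points are the 894 genes called higher, blue points the 770 called lower, grey points the rest, and the line marks equal means. Lcn2, C3 and Hspb1 lie far above the line, Spon1, Olfm3 and Olig1 far below it, and Gfap close to it.

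Of the main genes that define astrocytes, Gfap, Aqp4, Aldh1l1, Gja1, S100b, Glul, Vim, Slc1a3 and Slc1a2 were not called. Gfap, the glial filament protein, was at 14.59, 13.64 and 14.64 on the HBEGF P7 arrays and at 14.72, 14.70 and 14.41 on the withdrawn arrays. The groups overlapped, and the difference was 0.32 ± 0.28 (SE; adjusted p = 0.435). Aqp4, the water channel of astrocyte endfeet, differed by 0.18 (adjusted p = 0.613), and Aldh1l1, a folate enzyme used as a pan-astrocyte marker, by 0.24 (adjusted p = 0.504). The gap junction gene Gja1 differed by 0.19 (adjusted p = 0.176), the calcium-binding protein gene S100b by 0.02 (adjusted p = 0.962), and Glul, the glutamine synthetase gene, by 0.47 (adjusted p = 0.0713). Over the mean of its probe sets Glul was higher by 1.24 (adjusted p = 0.00264), which passes the call. Vim, the filament protein vimentin, was higher on every withdrawn array by a small margin, 0.35 (adjusted p = 0.0328), below the fold limit. Itgb5, the target of the panning, differed by -0.26 (adjusted p = 0.596). Some of these genes were bright throughout: the lowest value of Gfap, Aqp4, Gja1, S100b or Vim on any of the 6 arrays was 13.02, for Aqp4. Vim is not in the list of astrocyte markers used here. Slc1a2, which is in that list, was far lower on all 6 arrays, as given below.

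Genes of transmitter uptake and transport were lower in part. Slc1a3, the glutamate transporter GLAST, was at 14.10, 14.43 and 14.08 on the HBEGF P7 arrays and at 14.05, 13.89 and 13.15 on the withdrawn arrays, a difference of -0.50 (adjusted p = 0.0793). Slc1a2, the transporter GLT-1 that rises as astrocytes mature, was at 7.53, 7.19 and 6.49 without serum and at 6.23, 6.17 and 6.03 after withdrawal. All 6 of these values are below the 10.37 of fresh P7 cells, and the withdrawn arrays were the lowest, by -0.93 (adjusted p = 0.00278), just short of the fold limit, which it passed without HBEGF P7 replicate 3. The glycine transporter Slc6a9, with 10.86, 11.44 and 9.04 against 8.0, 7.70 and 7.96, fell by 2.56 (adjusted p = 0.000254). Slc38a3, which releases glutamine, fell by 1.37 (adjusted p = 0.00065), and Slc7a10, the serine and glycine carrier, fell by 1.19 (adjusted p = 0.00156; not called without HBEGF P7 replicate 2). These were the 3 of 16 measured members of the list of glutamate, GABA and ion transport that fell, and 0 rose. The falls were 18.8% of this list, against 5.42% of all genes.

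Some receptors through which astrocytes sense transmitter fell. The metabotropic glutamate receptor gene Grm5 was at 9.95, 9.76 and 9.10 in the HBEGF P7 cultures and at 7.83, 7.02 and 5.56 in the withdrawn cultures, so the groups were well apart and the gene fell by 2.80 (adjusted p = 0.0018). The GABA-A receptor subunits Gabrg1 and Gabra2 fell by 2.31 each (adjusted p = 0.000165 and 0.00325), and the sphingosine phosphate receptor S1pr1 fell by 2.01 (adjusted p = 0.00175). In this list 4 of 18 measured genes fell, 22.2% against 5.42% of all genes, and 0 rose, with a median of -0.66. Of the astrocyte marker list as a whole, 1 of 25 rose (4%) and 2 fell (8%), against 6.29% and 5.42% of all genes. The median of the list was 0.02, close to the median over all genes. The secreted chaperone Clu rose by 1.48 (adjusted p = 0.0476), and Slc7a10 and the phagocytic bridge Mfge8 fell, Mfge8 by 1.23 (adjusted p = 0.049). The calls of Clu and Mfge8 were lost without HBEGF P7 replicate 1 or 2 or any 1 withdrawn array (adjusted p = 0.246 for Clu and 0.236 for Mfge8 without HBEGF P7 replicate 2), and 4 astrocyte markers fell without HBEGF P7 replicate 3.

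**Figure D2:**
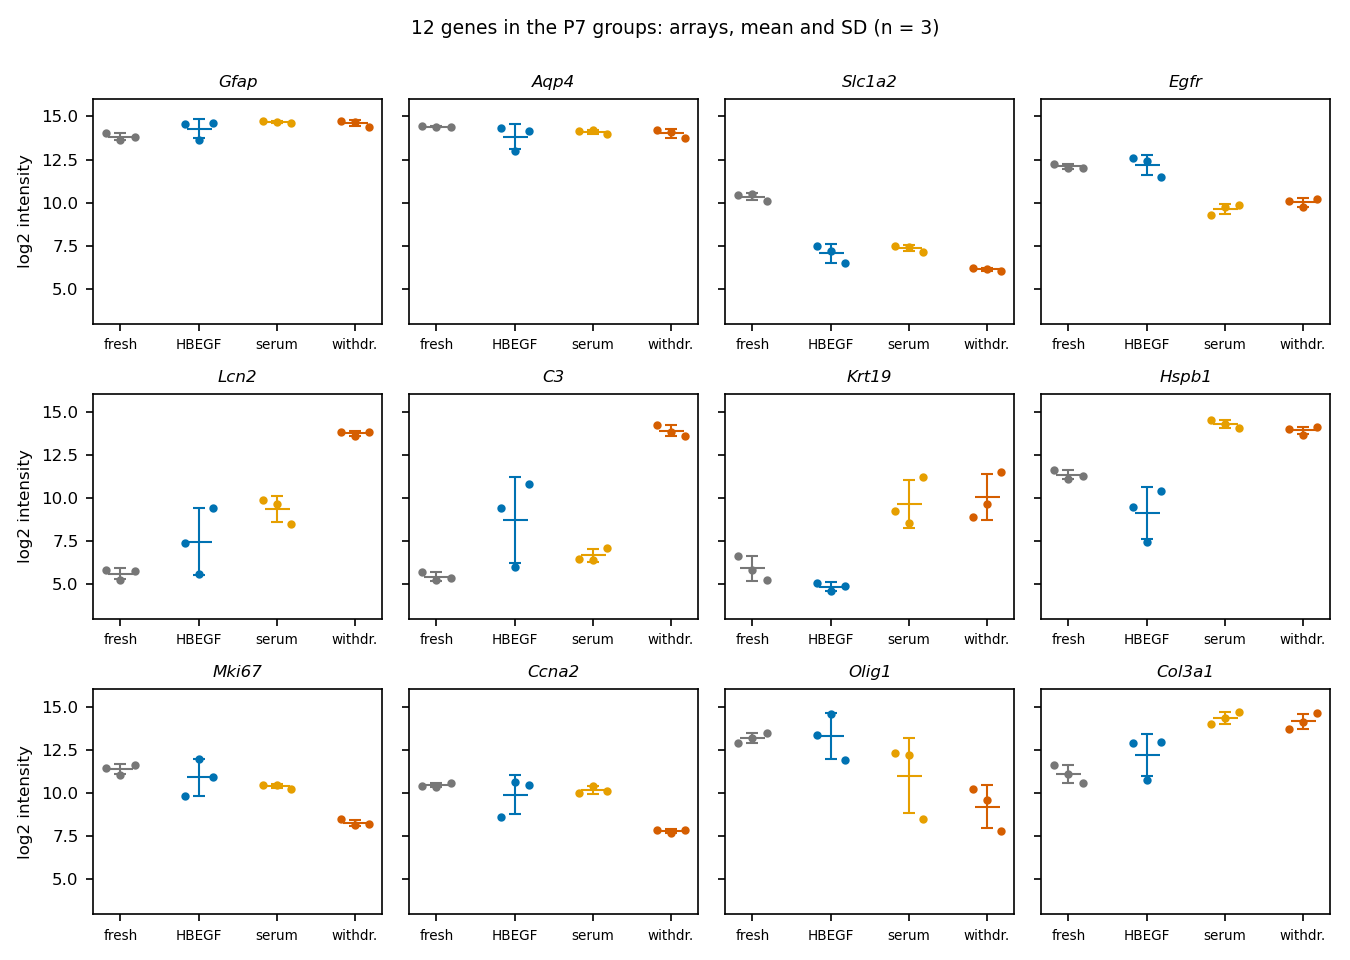
Log2 intensity of 12 genes in the P7 groups (fresh cells, HBEGF, serum and withdrawn cultures); points are arrays, the long tick is the mean and the bar the SD (n = 3). Gfap and Aqp4 are near the top in all groups, Lcn2 and C3 are highest after withdrawal, Hspb1 and Krt19 are high in serum and after withdrawal, and Mki67 and Ccna2 are lowest after withdrawal.

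The receptor for the growth factor in the medium was lower after serum. Egfr, the EGF receptor gene, was at 12.58, 12.42 and 11.51 in the HBEGF P7 cultures and at 10.09, 9.76 and 10.22 in the withdrawn cultures. Every withdrawn array was below every HBEGF P7 array, and the gene fell by 2.15 ± 0.26 (adjusted p = 4.12e-05), which kept its call with any 1 array left out. It was at 9.66 ± 0.32 (SD, n = 3) at the end of serum and at 12.11 in fresh P7 cells. Egfr was the 1 of 11 measured genes of the EGF receptor family and its ligands to be called, 9.09% against 11.7% of all genes. Hbegf itself, at 7.52, 7.58 and 8.36 against 8.41, 8.06 and 7.06, differed by 0.02 (adjusted p = 0.982), with overlapping groups.

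Genes that are induced by MAP kinase signalling and feed back on it moved in both directions. The feedback inhibitor Spry2 was at 12.30, 12.88 and 10.91 without serum and at 10.43, 10.25 and 9.16 after withdrawal, and fell by 2.08 (adjusted p = 0.00156). The ETS factors Etv5 and Etv1, which follow growth factor receptor activity in many cells, fell by 2.88 (adjusted p = 0.00106) and 1.55 (adjusted p = 0.000424). The phosphatase gene Dusp1, at 7.50, 6.94 and 8.38 against 9.67, 10.09 and 11.40, rose by 2.78 (adjusted p = 5.77e-05), and Ier3, a stress-induced survival gene, rose by 2.79 (adjusted p = 9.28e-05). In this list 3 of 20 rose (15%) and 4 fell (20%), against 6.29% and 5.42% of all genes, and 9 fell without HBEGF P7 replicate 3. Among 22 immediate-early genes 4 rose (18.2%) and 3 fell (13.6%), against 6.29% and 5.42% of all genes. The fallen ones numbered 1 without HBEGF P7 replicate 2. Junb, with 7.88, 7.75 and 8.24 against 9.40, 9.37 and 9.03, rose by 1.31 (adjusted p = 0.000446), and Klf2 by 2.22 (adjusted p = 0.0036), whereas Egr2 fell by 2.14 (adjusted p = 0.00749).

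Reactive astrocyte genes held the largest rise of all. Lcn2, the secreted iron-binding lipocalin that is a standard marker of reactive astrocytes, was at 7.40, 5.57 and 9.44 in the HBEGF P7 cultures and at 13.84, 13.56 and 13.83 in the withdrawn cultures. It rose by 6.28 ± 0.64, a 77.5-fold difference (adjusted p = 8.32e-06), and the withdrawn arrays were close together while the HBEGF P7 arrays were spread widely. Omitting HBEGF P7 replicate 2 gave an Lcn2 difference of 5.33, and omitting HBEGF P7 replicate 3 gave 7.26. Hspb1, a small heat shock protein, went from 9.48, 7.46 and 10.40 to 13.97, 13.67 and 14.08 and rose by 4.80 (adjusted p = 2.58e-05). The metalloreductase Steap4, at 5.63, 4.06 and 7.00 against 9.63, 9.15 and 10.95, rose by 4.35 (adjusted p = 0.000638). The granule proteoglycan Srgn, at 8.11, 6.89 and 9.14 against 12.08, 12.27 and 12.96, rose by 4.39 (adjusted p = 6.01e-05). The groups did not overlap for any of these genes. Of 31 measured genes of the reactive list 16 rose and 1 fell, with a median of 1.25, against 6.29% and 5.42% of all genes. The number of rises stayed between 14 and 18 when 1 array was left out and was 10 when the 6 arrays were fitted alone.

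Complement genes rose as well. C3, the central component of the cascade, was at 9.41, 5.99 and 10.81 without serum and at 14.21, 13.84 and 13.59 after withdrawal. All withdrawn arrays were above all HBEGF P7 arrays, and C3 rose by 5.14 ± 0.78 (adjusted p = 0.000246). With HBEGF P7 replicate 2 omitted the C3 difference was 3.77, and with HBEGF P7 replicate 3 omitted it was 6.18. Serping1, the inhibitor of the first complement step, at 10.58, 8.60 and 12.13 against 13.67, 13.61 and 13.45, rose by 3.14 (adjusted p = 0.00386). The subunits of C1q, which in brain are made by microglia, rose as well: C1qa was at 6.0, 5.55 and 9.65 against 10.35, 9.06 and 10.98 and rose by 3.06 (adjusted p = 0.00602). For C1qa the groups overlapped, because HBEGF P7 replicate 3 was above withdrawn replicate 2. In all, 11 of 13 measured complement genes rose, 84.6% against 6.29% of all genes, and 0 fell, with a median of 2.50. The rises numbered 9 to 11 when 1 array was left out. They numbered 5 without HBEGF P7 replicate 2 and withdrawn replicate 3 together, and 2 when the 6 arrays were fitted alone.

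Microglia and macrophage markers moved beside these genes. Their summed intensity over 19 markers was 1684, 1127 and 7806 on the HBEGF P7 arrays, between 1157 and 2089 on the serum P7 arrays, and 21460, 8241 and 31366 on the withdrawn arrays. Of the 19 markers 10 rose, 52.6% against 6.29% of all genes, and 0 fell, with a median of 1.73. The rises numbered 4 without HBEGF P7 replicate 2, 6 with HBEGF P7 replicate 1 or withdrawn replicate 3 omitted, and 1 with the 6 arrays alone. Lyz2, the macrophage lysozyme, was at 7.98, 7.04 and 10.05 against 13.35, 11.97 and 13.86 and rose by 4.71 (adjusted p = 9.42e-05), and the protease Ctss rose by 2.71 (adjusted p = 0.00144). The other markers that rose were the 3 C1q genes, Csf1r (by 1.73, adjusted p = 0.0194), Fcgr3a (2.07, adjusted p = 0.015), Fcer1g (2.12, adjusted p = 0.0236), Tyrobp (2.22, adjusted p = 0.0256) and Laptm5 (1.19, adjusted p = 0.0026). Among those not called, Itgam differed by 0.62 (adjusted p = 0.0343), Ptprc by 0.56 (adjusted p = 0.0297), Cx3cr1 by 0.55 (adjusted p = 0.0187) and Aif1 by 0.13 (adjusted p = 0.461), and all 4 were under the overall median of 7.11 on all 6 arrays. Members outside the naming rule are given here after their values were seen. The part of these cells in the rise of complement, Lyz2 or reactive genes was not tested. In bulk cultures fewer cells of a type and less RNA per cell cannot be told apart.

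**Figure D3:**
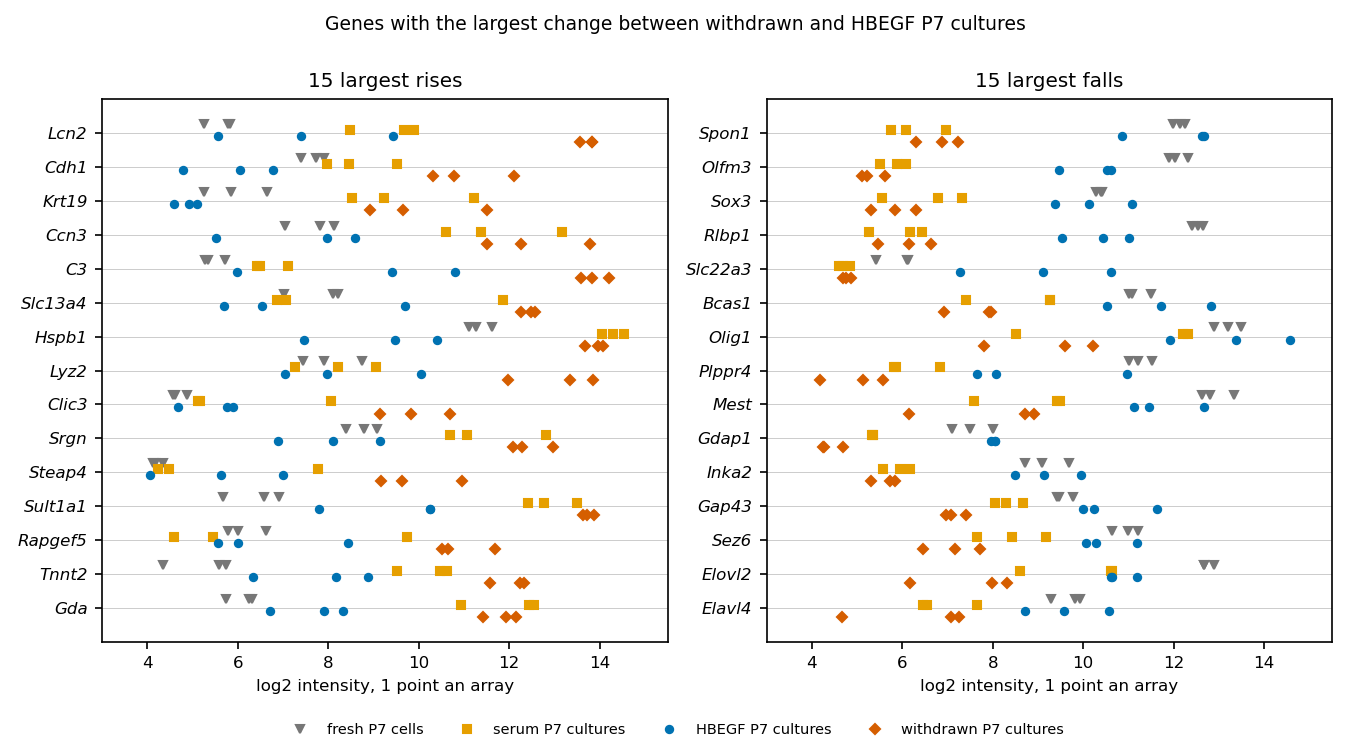
Log2 intensity of the 15 largest rises and 15 largest falls on each array of the P7 groups. The withdrawn arrays (diamonds) are above all HBEGF P7 arrays (circles) for the rises and below them for the falls; serum arrays (squares) lie with the withdrawn ones for Hspb1, Gda, Spon1 and Rlbp1, but with the HBEGF P7 ones for C3 and Steap4.

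The serum P7 cultures show that the large rises were of more than 1 kind. C3 was at 6.67 ± 0.36 (SD, n = 3) at the end of serum, and withdrawn cultures were 7.21 above serum cultures (adjusted p = 6e-05). Steap4 was at 5.50, with withdrawn cultures 4.41 higher (adjusted p = 0.00202), and Lyz2 at 8.17, with withdrawn cultures 4.89 higher (adjusted p = 0.000309). For these genes the high level was found after withdrawal and not at the end of serum. Hspb1 was already at 14.29 at the end of serum, Krt19 at 9.66, Ccn3 at 11.73, Gda at 11.98 and Sult1a1 at 12.89. For these 5 genes withdrawn and serum cultures differed by between -0.39 and 0.85, with adjusted p from 0.403 to 0.928. Lcn2 was at 9.35 at the end of serum, inside the range of the HBEGF P7 arrays, with withdrawn cultures 4.39 higher (adjusted p = 0.000662). By the same rules 1322 genes, 9.3%, differed between serum and HBEGF P7 cultures and 640, 4.5%, between withdrawn and serum cultures; these comparisons share arrays with the main one, so the genes they have in common are not counted.

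The other members of the 15 largest rises were of varied kinds. Krt19, an epithelial keratin, was at 5.09, 4.59 and 4.92 on the HBEGF P7 arrays, under the overall median, and at 8.92, 9.65 and 11.52 on the withdrawn arrays. It rose by 5.16 ± 0.65 (adjusted p = 5.6e-05), with withdrawn replicate 3 the highest. Cdh1, E-cadherin, which joins epithelial cells, was at 6.05, 4.79 and 6.78 against 10.32, 10.79 and 12.10 and rose by 5.19 (adjusted p = 2.88e-06). Tnnt2, the cardiac troponin T gene, was at 8.88, 6.33 and 8.16 against 12.23, 12.33 and 11.58 and rose by 4.25 (adjusted p = 3.04e-05). The sulphate transporter Slc13a4, known from the meninges and choroid plexus, was at 6.53, 5.69 and 9.69 against 12.27, 12.58 and 12.48 and rose by 5.14 (adjusted p = 0.00246). Rapgef5, an activator of small GTPases, rose by 4.29 (adjusted p = 0.00343), the chloride channel gene Clic3 by 4.44 (adjusted p = 6.26e-05), the sulphotransferase Sult1a1 by 4.31 (adjusted p = 3.37e-05) and Gda, guanine deaminase, by 4.19 (adjusted p = 2.14e-05).

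Many collagen and matrix genes were higher in withdrawn cultures. Col3a1, a fibrillar collagen of connective tissue, was at 12.88, 10.78 and 12.95 without serum and at 13.71, 14.13 and 14.61 after withdrawal, and rose by 1.94 (adjusted p = 0.013); it was not called without withdrawn replicate 3 or HBEGF P7 replicate 2 (adjusted p = 0.0727 without the latter). Col4a2, a collagen of basement membranes, was steadier, at 8.72, 8.20 and 8.64 against 9.98, 10.36 and 10.67, and rose by 1.82 (adjusted p = 4.67e-05). The collagen hydroxylase P4ha2 rose by 2.49 (adjusted p = 1.23e-05), and Col6a3 by 1.88 (adjusted p = 0.00335). Of 27 collagens and collagen enzymes 16 rose, 59.3% against 6.29% of all genes, and 0 fell. The rises numbered 10 without withdrawn replicate 3 and 9 with the 6 arrays alone. Of 39 matrix glycoproteins and proteoglycans 15 rose (38.5%) and 1 fell (2.56%), against 6.29% and 5.42% of all genes. There were 7 rises when the 6 arrays were fitted alone. Omd, a keratan sulphate proteoglycan, at 9.47, 7.07 and 10.29 against 12.56, 12.28 and 12.15, rose by 3.39 (adjusted p = 0.000618), and its relative Fmod by 2.90 (adjusted p = 0.00174). The tenascin gene Tnn, at 4.42, 4.40 and 4.22 against 7.47, 7.42 and 7.92, rose by 3.26 (adjusted p = 9.73e-06); it was at 11.64 at the end of serum, and withdrawn minus serum was -4.03 (adjusted p = 7.24e-06).

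The 1 matrix gene that fell was the largest fall of all. Spon1, the secreted adhesion protein F-spondin, was at 12.63, 12.68 and 10.85 in HBEGF P7 cultures and at 7.23, 6.87 and 6.30 in withdrawn cultures, a fall of 5.25 ± 0.49 (adjusted p = 4.54e-06). It was at 12.12 in fresh P7 cells and at 6.26 in serum P7 cultures.

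Targets of cytoskeletal tension followed in part. The connective tissue growth factor gene Ccn2 was at 11.46, 11.83 and 11.55 against 13.08, 12.80 and 14.08 and rose by 1.71 (adjusted p = 0.00128). Its relative Ccn3, at 8.60, 5.51 and 7.96 against 11.50, 12.26 and 13.79, rose by 5.16 (adjusted p = 0.00038). Of 12 genes on the list of CCN genes and YAP targets 7 rose, 58.3% against 6.29% of all genes, and 0 fell. When dim probe sets were left out before the fit, 8 were measured and 3 rose. Of 21 cytoskeletal targets of serum response factor 7 rose, 33.3% against 6.29% of all genes, and 0 fell. The rises numbered 4 when HBEGF P7 replicate 1 was omitted, and 1 when HBEGF P7 replicate 2 was omitted or the 6 arrays were fitted alone. Tpm2, a tropomyosin of contractile cells, at 11.02, 10.05 and 9.82 against 11.28, 11.54 and 12.91, rose by 1.61 (adjusted p = 0.00392). Acta2, smooth muscle actin, at 7.78, 8.13 and 8.65 against 9.10, 9.29 and 9.25, rose by 1.02 (adjusted p = 0.0251); it was not called without withdrawn replicate 2 or 3 or HBEGF P7 replicate 1 or 2 (adjusted p = 0.104 without HBEGF P7 replicate 1).

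Fibroblast and meningeal markers moved with the matrix genes. Of 21 such markers 14 rose, 66.7% against 6.29% of all genes, and 0 fell, with a median of 1.88. The rises numbered 8 without HBEGF P7 replicate 2 or withdrawn replicate 3, and 5 with the 6 arrays alone. Their summed intensity was 55248, 22723 and 58007 on the HBEGF P7 arrays, 100804, 115631 and 144296 on the withdrawn arrays and between 87817 and 150415 on the serum P7 arrays. Fresh P7 cells had sums between 10833 and 21909. Crabp2, which carries retinoic acid in meningeal cells, at 11.05, 8.30 and 11.31 against 13, 13.23 and 13.75, rose by 3.11 (adjusted p = 0.00192). Aldh1a2, the enzyme that makes retinoic acid there, at 9.73, 7.86 and 10.34 against 12.36, 12.90 and 13.21, rose by 3.51 (adjusted p = 0.00441). The markers were not at background without serum, and HBEGF P7 replicate 2 was the lowest array for all of Col3a1, Crabp2 and Aldh1a2. The part of such cells in the matrix genes was not tested.

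Endothelial markers were low but not equal: their summed intensity was between 1271 and 1404 on the HBEGF P7 arrays and 2765, 3337 and 5584 on the withdrawn arrays. Of 13 such genes 4 rose, 30.8% against 6.29% of all genes, and 0 fell. Abcb1a, the drug efflux pump of the blood-brain barrier, at 4.60, 4.34 and 4.33 against 7.14, 7.47 and 9.95, rose by 3.76 (adjusted p = 0.00057). The receptors Kdr and Tek rose by 1.84 (adjusted p = 0.00121) and 1.70 (adjusted p = 0.00137), and the transporter Slco1a4 rose by 1.88 (adjusted p = 0.0103). The Slco1a4 call was lost without withdrawn replicate 3 (adjusted p = 0.0509), and the Tek call with the 6 arrays alone (adjusted p = 0.075). Abcb1a and Kdr kept theirs in every setting tried. Among those not called, Esam differed by 0.91 (adjusted p = 0.0026) and Eng by 0.86 (adjusted p = 0.041), whereas Cldn5 differed by -0.06 (adjusted p = 0.887) and Pecam1 by 0.25 (adjusted p = 0.202), with both between 4.11 and 5.17 on all 6 arrays. These 4 were named after their values were seen. Of 11 mural cell markers 3 rose, 27.3% against 6.29% of all genes, and 0 fell, and 1 rose without HBEGF P7 replicate 2. Their part in the other results was not tested.

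**Figure D4:**
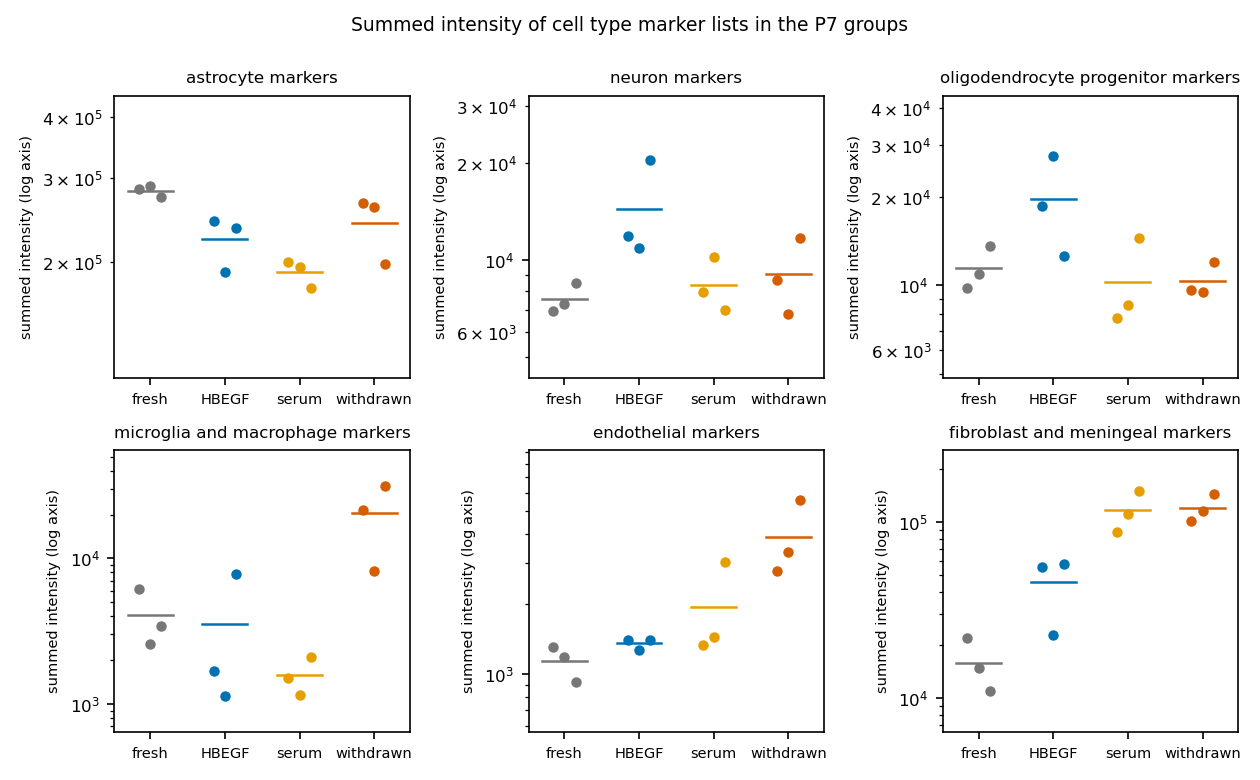
Summed intensity (linear intensities added over a list, log axis) of 6 lists of cell type markers in the P7 groups; points are arrays and lines are means (n = 3). Microglia and macrophage markers are highest in the withdrawn cultures, fibroblast and meningeal markers are high in serum and withdrawn cultures, and HBEGF P7 replicate 3 is the highest of its group for neuron and for microglia markers.

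Chemokine and interferon genes rose in part. Among 28 chemokines and cytokines 9 rose, 32.1% against 6.29% of all genes, and 0 fell. The rises numbered 4 without withdrawn replicate 1, 3 without HBEGF P7 replicate 2 and 2 with the 6 arrays alone. The neutrophil chemokine Cxcl1, at 7.56, 5.87 and 9.11 against 9.76, 9.69 and 10.97, rose by 2.63 (adjusted p = 0.00415). Cxcl13, which draws B cells, was between 4.15 and 4.30 without serum, far under the overall median, and at 6.58, 4.97 and 7.09 after withdrawal, a rise of 1.97 (adjusted p = 0.000752). The adhesion receptor Icam1 was tight in both groups, at 9.46, 9.30 and 9.51 against 11.18, 11.37 and 12, and rose by 2.09 (adjusted p = 5.95e-05). Of 28 genes of interferon response and antigen presentation 14 rose, 50% against 6.29% of all genes, and 0 fell. The rises numbered 6 without withdrawn replicate 1 or HBEGF P7 replicate 2, 9 without withdrawn replicate 2 and 1 with the 6 arrays alone. Irf7, the interferon regulatory factor, at 8.02, 6.72 and 8.42 against 10.46, 9.83 and 9.19, rose by 2.10 (adjusted p = 0.000942). The antiviral gene Mx1, at 5.46, 4.68 and 6.11 against 9.11, 7.48 and 5.53, rose by 1.96 (adjusted p = 0.0252) with overlapping groups, since withdrawn replicate 3 was low, and its call was lost without withdrawn replicate 1 or 2 or HBEGF P7 replicate 1 or 2 (adjusted p = 0.13 without withdrawn replicate 1).

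Among the 44 lists, the cell cycle had the most falls. Mki67, present in dividing cells, was at 9.85, 11.99 and 10.92 in HBEGF P7 cultures and at 8.47, 8.16 and 8.20 in withdrawn cultures. Every withdrawn array was lower, the withdrawn arrays were close together, and the gene fell by 2.65 ± 0.36 (adjusted p = 9.8e-05). Ccna2, the S-phase and G2 cyclin, at 8.60, 10.66 and 10.45 against 7.87, 7.68 and 7.87, fell by 2.10 (adjusted p = 0.000711). The checkpoint kinase gene Bub1b fell by 2.21 (adjusted p = 0.000169), Top2a, the topoisomerase of replicating cells, by 2.00 (adjusted p = 0.0009), and the spindle motor Kif11 by 1.97 (adjusted p = 0.00156). Of 35 measured cell cycle genes 29 fell and 0 rose, with a median of -1.49, against 5.42% of all genes. The count was between 20 and 33 when 1 array was left out, lowest without HBEGF P7 replicate 2, was 18 without that array and withdrawn replicate 3, and was 9 when the 6 arrays were fitted alone. At the end of serum Mki67 was at 10.41 and Ccna2 at 10.18, and the withdrawn minus serum differences were -2.13 (adjusted p = 0.0019) and -2.37 (adjusted p = 0.00104). Of 18 inhibitors of the cycle and targets of p53, 2 rose (11.1%) and 1 fell (5.56%), against 6.29% and 5.42% of all genes. Without HBEGF P7 replicate 2 there were 4 rises and 2 falls. Gadd45b, a growth arrest and stress gene, rose by 2.02 (adjusted p = 0.000875) and the p53 target Phlda3 by 1.01 (adjusted p = 0.00531; not called without withdrawn replicate 1 or 2 or HBEGF P7 replicate 1), and the growth arrest gene Gas2 fell by 1.87 (adjusted p = 4.84e-05).

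Since these genes moved together, their promoters are shown. Many promoters of G2 and mitosis genes are known to hold CCAAT boxes and a TTTGAA element called CHR. RefSeq promoter sequence (build GRCr8) was matched by symbol for 28 of the 35 genes, and the 250 bases before the start were searched on both strands for the letters CCAAT and TTTGAA, which do not overlap each other. CCAAT was found in 22 of 28 promoters, 78.6%, against 34.3% of 27457 promoters in the table, and TTTGAA in 11 of 28, 39.3%, against 16% of all. Over the 11733 promoters of genes measured here the shares were 35.1% for CCAAT and 10.9% for TTTGAA. Among the 24 genes of these that fell, 19 held CCAAT and 9 held TTTGAA. A match describes letters and is not shown to be a site that works here. The 120 bases before the start are given 5′ to 3′ for a cyclin, its kinase and Top2a, with both motifs, on either strand, in capitals.
Ccnb1 (chr2:33655226-33655345, minus strand): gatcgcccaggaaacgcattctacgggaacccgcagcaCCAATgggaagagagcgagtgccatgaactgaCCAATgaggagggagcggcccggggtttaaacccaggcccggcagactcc
Cdk1 (chr20:19265173-19265292, plus strand): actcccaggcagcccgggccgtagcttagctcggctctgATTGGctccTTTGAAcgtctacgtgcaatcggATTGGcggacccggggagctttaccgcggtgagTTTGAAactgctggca
Top2a (chr10:84473094-84473213, minus strand): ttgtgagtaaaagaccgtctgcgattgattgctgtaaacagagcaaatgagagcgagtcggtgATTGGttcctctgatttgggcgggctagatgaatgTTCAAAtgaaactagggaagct
In these windows Ccnb1 held CCAAT 2 times and no TTTGAA, Cdk1 held each 2 times, and Top2a held each 1 time.

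The largest falls after Spon1 included genes of immature glia. Olig1, the transcription factor of the oligodendrocyte lineage, was at 13.39, 14.56 and 11.92 without serum and at 10.22, 9.59 and 7.81 after withdrawal, and fell by 4.08 ± 0.82 (adjusted p = 0.00196). Sox3, a factor of neural progenitors, at 10.13, 11.08 and 9.37 against 6.30, 5.84 and 5.31, fell by 4.37 (adjusted p = 7.6e-06). Olfm3, a secreted olfactomedin protein, at 10.52, 10.60 and 9.47 against 5.62, 5.23 and 5.10, fell by 4.88 (adjusted p = 2.57e-08), to a level under the overall median. Rlbp1, the retinaldehyde-binding protein of glia, at 10.43, 11 and 9.53 against 6.64, 6.16 and 5.46, fell by 4.23 (adjusted p = 9.74e-07). In fresh P7 cells Olfm3 was at 12.07, Rlbp1 at 12.53, Sox3 at 10.36 and Olig1 at 13.19, so the HBEGF P7 cultures were nearer to fresh cells for all 4 genes. At the end of serum Olfm3 was at 5.82, Rlbp1 at 5.95 and Sox3 at 6.56. For Olig1 the mean at the end of serum lay between those of the HBEGF P7 and withdrawn cultures. Withdrawn minus serum was -1.80 for Olig1 (adjusted p = 0.22, and 0.031 with the replicate number of these arrays as a block).

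Elovl2, which elongates polyunsaturated fatty acids, was at 10.64, 11.19 and 10.61 against 8.32, 7.98 and 6.17 and fell by 3.32 (adjusted p = 0.000184). The other largest falls were the organic cation transporter Slc22a3 (4.69, 4.87 and 4.75 after withdrawal), the oligodendrocyte gene Bcas1, the synaptic lipid modulator Plppr4, the imprinted gene Mest, the mitochondrial gene Gdap1, the kinase inhibitor Inka2, the growth cone protein Gap43, the seizure-related gene Sez6 and the neuronal RNA-binding protein gene Elavl4. Their log2 differences ran from -4.23 for Slc22a3 to -3.29 for Elavl4, with adjusted p at most 0.000591. Each of the 15 largest rises and 15 largest falls kept its call with any 1 array left out, but Rapgef5 and Olig1 lost it without HBEGF P7 replicate 2 and withdrawn replicate 3 together (adjusted p = 0.0673 and 0.0556), and Elavl4 with the 6 arrays alone (adjusted p = 0.0528).

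Among 23 neuron markers 6 fell (26.1%) and 1 rose (4.35%), against 5.42% and 6.29% of all genes. The median was -0.45, and 2 fell with the 6 arrays alone. The 1 that rose was Eno2, by 1.02 (adjusted p = 0.00139), named after its value was seen. Rbfox3, the nuclear antigen NeuN, at 8.89, 8.30 and 8.79 against 7.06, 7.05 and 6.89, fell by 1.66 (adjusted p = 0.00038), and the microtubule protein gene Map2 fell by 1.57 (adjusted p = 0.00118). Dcx, Gad1 and Tubb3, genes of young and inhibitory neurons named after their values were seen, stood out in HBEGF P7 replicate 3. Dcx was at 7.24, 5.55 and 10.37, Gad1 at 4.22, 4.18 and 8.91 and Tubb3 at 6.83, 5.51 and 10.85 on the HBEGF P7 arrays, and none was called. The summed neuron markers were 11866, 10925 and 20425 on these arrays and 8646, 6829 and 11697 on the withdrawn arrays. The last sum includes Sst, the somatostatin gene, at 12.80 against 6.54 and 6.85 on the other withdrawn arrays. Sst was named after its values were seen. As a mean of log2 values the markers were at 6.94, 6.41 and 8.21 on the HBEGF P7 arrays and at 6.79, 6.74 and 6.65 on the withdrawn arrays. Their part in the falls was not tested. Without HBEGF P7 replicate 3, 4 neuron markers fell. Of 7 measured markers of oligodendrocyte progenitors, Olig1 and Lhfpl3 fell (Lhfpl3 by 2.50, adjusted p = 0.00207) and C1ql1 rose. The falls were 28.6% and the rises 14.3% of this list, against 5.42% and 6.29% of all genes. The summed intensity of these 7 was 18627, 27582 and 12579 on the HBEGF P7 arrays and 9639, 9451 and 11952 on the withdrawn arrays. Olig1 alone makes up most of the sum on HBEGF P7 replicate 2. As a mean of log2 values they were at 8.99, 8.68 and 8.64 against 8.45, 8.37 and 7.85. The proteoglycan Cspg4 (NG2) was low in both groups, with a difference of -0.51 (adjusted p = 0.0723). Pdgfra (1.48, adjusted p = 0.12), Olig2 (0.08, adjusted p = 0.826) and Sox10 (-0.09, adjusted p = 0.794), named after their values were seen, were not called.

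Notch1 and its ligand Dll1 fell, and another ligand, Jag1, named after its value was seen, rose by 1.16 (adjusted p = 0.00675). The receptor Notch1, at 11.61, 11.16 and 11.38 against 10.39, 10.11 and 8.89, fell by 1.59 (adjusted p = 0.00362), and Dll1, at 9.25, 9.15 and 8.34 against 7.49, 7.28 and 6.15, fell by 1.94 (adjusted p = 0.001). Nes, the filament of progenitors, fell by 1.45 (adjusted p = 0.00946; not called without HBEGF P7 replicate 2). Of 29 Notch and progenitor genes 5 fell (17.2%) and 2 rose (6.9%), against 5.42% and 6.29% of all genes. The falls numbered 10 without withdrawn replicate 1 and 3 with the 6 arrays alone. Among 30 axon guidance genes 6 fell (20%) and 4 rose (13.3%), against 5.42% and 6.29% of all genes, with 2 rises without HBEGF P7 replicate 2. The Eph receptor gene Ephb1, at 10.59, 10.12 and 9.78 against 7.38, 7.46 and 6.78, fell by 2.95 (adjusted p = 2.49e-06), and the semaphorin receptor gene Plxna2, with little spread, at 9.60, 9.66 and 9.18 against 7.66, 7.57 and 7.50, fell by 1.90 (adjusted p = 1.65e-06). The netrin receptor gene Unc5c, at 6.97, 7.07 and 7.59 against 8.97, 8.86 and 8.76, rose by 1.65 (adjusted p = 0.00025). Ntn1 fell by 1.96 (adjusted p = 0.00366), but another of its probe sets changed the other way.

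Some growth factor genes rose. Bmp4, a signal that drives astrocyte differentiation, at 8.86, 7.70 and 9.56 against 10.71, 11.34 and 11.85, rose by 2.60 (adjusted p = 0.00175), and Ltbp2, which lies in the TGF-beta matrix pathway, at 7.41, 6.83 and 8.37 against 10.76, 10.13 and 9.96, rose by 2.75 (adjusted p = 3.98e-05). In the TGF-beta and BMP list 8 of 24 rose, 33.3% against 6.29% of all genes, and 0 fell. The rises numbered 3 without withdrawn replicate 3 and 4 without HBEGF P7 replicate 2. Fgf1, at 7.09, 6.97 and 7.62 against 9.46, 9.92 and 11.72, rose by 3.14 (adjusted p = 0.000286), and Vegfc, a lymphatic growth factor, rose by 1.67 (adjusted p = 0.000297). Of 21 FGF, PDGF and related genes 5 rose, 23.8% against 6.29% of all genes, and 3 rose without HBEGF P7 replicate 2. The binding protein genes Igfbp6 and Igfbp7 rose by 2.57 (adjusted p = 0.000731) and 2.02 (adjusted p = 0.00197). In that family 4 of 14 genes rose, 28.6% against 6.29% of all genes, and 2 rose without HBEGF P7 replicate 2 or withdrawn replicate 3.

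Metabolic lists differed in how many members were called. Cyp51, a sterol demethylase, at 12.69, 13.12 and 12.55 against 11.54, 11.18 and 11.76, fell by 1.29 (adjusted p = 5.26e-05). It was 1 of 2 that fell among 19 cholesterol synthesis genes, 10.5% against 5.42% of all genes. The falls numbered 5 without HBEGF P7 replicate 3 and 1 without withdrawn replicate 1 or 2. The log2 difference was below 0 for 18 of the 19, with a median of -0.65, and Sqle (-0.93, adjusted p = 0.00039) and Dhcr7 (-0.74, adjusted p = 0.00014), named after their values were seen, were under the fold limit. Of 18 fatty acid genes 4 fell, 22.2% against 5.42% of all genes, among them Elovl2 and Me1, which supplies NADPH and fell by 1.11 (adjusted p = 0.000159); 2 fell without HBEGF P7 replicate 2. The glutathione transferase Gstm2, at 9.06, 6.77 and 9.66 against 12.23, 12.57 and 12.31, rose by 3.88 (adjusted p = 6.27e-05), 1 of 3 that rose among 30 genes of glutathione and antioxidant defence, 10% against 6.29% of all genes. Among 18 retinoid and thyroid hormone genes 6 rose (33.3%) and 2 fell (11.1%), against 6.29% and 5.42% of all genes. Thrsp, a thyroid-responsive gene, at 8.05, 6.0 and 8.51 against 11.07, 10.72 and 12.15, rose by 3.80 (adjusted p = 0.000182). The retinol carrier Rbp4 rose by 2.36 (adjusted p = 0.00342), and Aldh1a1 fell by 2.27 (adjusted p = 0.016). The Aldh1a1 call was lost without withdrawn replicate 3 (adjusted p = 0.0805) or HBEGF P7 replicate 1. Among 24 genes of glycolysis and glycogen 2 rose, 8.33% against 6.29% of all genes, and 0 fell, with a median of 0.01; 0 rose without withdrawn replicate 2 or HBEGF P7 replicate 2.

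**Figure D5:**
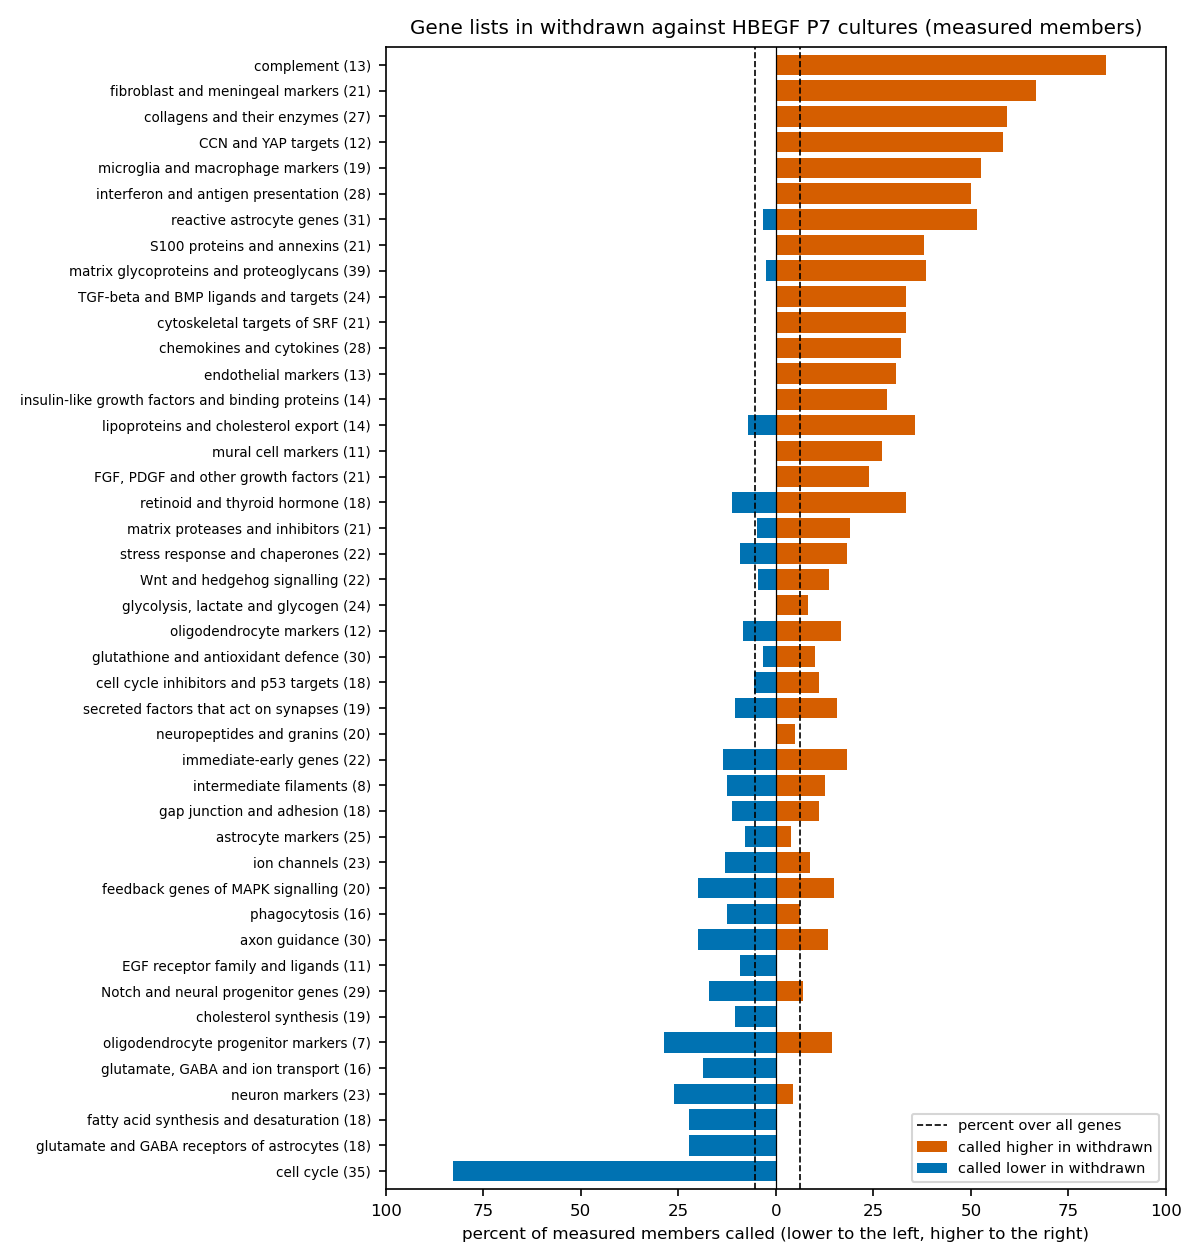
Percent of the measured members of each of 44 gene lists that were called higher (orange, to the right) or lower (blue, to the left) in withdrawn against HBEGF P7 cultures; the number of measured members is in brackets and the dashed lines are the percents over all genes, 6.29 and 5.42. Complement genes have the longest bar to the right and cell cycle genes the longest to the left.

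The MD cultures, which share no array with this comparison, were set against HBEGF P1 cultures to give the same genes in another culture with serum. MD cultures were in serum until harvest, with no time in HBEGF medium, and were made by another method. There, 1253 genes (8.81%) were higher and 1360 (9.57%) lower in MD cultures. Of the 1253 higher genes 261 (20.8%) rose and 192 (15.3%) fell in withdrawn against HBEGF P7 cultures, which is 29.2% of all rises and 24.9% of all falls. Of the 1360 lower genes 53 (3.9%) rose and 294 (21.6%) fell, which is 5.93% of the rises and 38.2% of the falls. Over all genes 6.29% rose and 5.42% fell.

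Single genes differed in this. Spon1 (-5.51), Olfm3 (-3.97), Rlbp1 (-4.64), Slc22a3 (-5.49) and Egfr (-3.39) were lower in MD than in HBEGF P1 cultures with adjusted p of at most 4.85e-07, and Hspb1 (5.68, adjusted p = 6.95e-07) and Gda (5.78, adjusted p = 1.14e-07) were higher. Mki67 and Ccna2 were higher in MD cultures, by 1.93 (adjusted p = 0.000424) and 2.13 (adjusted p = 0.000213), where they fell after withdrawal. C3, at 6.95 ± 0.95 in HBEGF P1 and 6.59 ± 0.48 in MD cultures (SD, n = 3), differed by -0.36 (adjusted p = 0.754), and Cdh1, Steap4, Lyz2 and Clic3 differed by between -0.21 and 0.52 (adjusted p from 0.557 to 0.988). Astrocyte genes not called after withdrawal were lower in MD cultures: Aldh1l1 differed by -2.35 (adjusted p = 1.3e-06) and Aqp4 by -1.41 (adjusted p = 0.000205), and whether these differences differ from those after withdrawal was not tested.

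Culture without serum was compared in P1 cells, again with no array in common. In HBEGF P1 cultures 622 genes (4.38%) were higher and 639 (4.49%) lower than in fresh P1 cells. Of the 622, 82 (13.2%) rose and 49 (7.88%) fell after serum and withdrawal, and of the 639, 82 (12.8%) rose and 145 (22.7%) fell. These 82, 49, 82 and 145 genes are 9.17% of the rises, 6.36% of the falls, 9.17% of the rises and 18.8% of the falls.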

How the data were processed

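RNA was measured on Affymetrix Rat Genome arrays, 21 in all. The authors deposited 1 linear intensity per probe set and array, summarised with RMA per the submitters' processing notes; for its software and chip definition, the sources used here name nothing. The log2 of these deposited intensities was taken without further scaling. Of 31042 probe sets 20826 had 1 gene symbol, 436 several and 9780 none; each of 14217 genes was read from its single-symbol probe set with the highest mean. Limma 3.58.1 (R 4.3.3) fitted the means of all 7 groups, which share 1 estimate of spread, with Benjamini-Hochberg adjustment over all probe sets. The procedure was run on simulated data with independent arrays and 1 SD per probe set for all groups. That run does not cover unequal spread between groups or replicates that lie close together. The smallest two-sided exact p of 3 arrays against 3 is 0.1, so no permutation test was used for single genes.

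The text names the 15 largest rises and 15 largest falls among called genes whose groups did not overlap, up to 5 called members of each list, and 14 genes named whatever their values; others are said to be named after their values were seen. The members and the 44 lists were chosen with earlier results of these data known. List counts are descriptions, and lists share members. The number of arrays limits the precision. Alternatives covered arrays, scaling, filter, spread model, probe sets, fold limit and replicate numbers. Same-numbered withdrawn and serum arrays deviated together (correlations 0.49, 0.28 and 0.52), so the replicate number was tried as a block in that comparison. Withdrawn replicate 1 with serum replicate 2, and withdrawn replicate 2 with serum replicate 1, also did (0.34 each), and the labels name no pairs. Same-numbered withdrawn and HBEGF P7 arrays did not. Promoters are from RefSeq (GRCr8). Figures were drawn with matplotlib 3.10.9 (Python 3.11.15).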

Additional observations from a re-analysis of the deposited data

How the results depend on the processing

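With each of the 6 arrays left out in turn, the called genes numbered from 1269 to 1974 (607 to 1069 higher, 662 to 905 lower). Fitted on the 6 arrays alone, 895 genes were called (464 higher, 431 lower). That fit has fewer arrays to estimate the spread and takes it from these groups alone. The median SD of a gene was 0.23 inside the HBEGF P7 group and 0.14 inside the withdrawn group. It was between 0.15 and 0.19 inside the other groups. Which of these differences lowered the count was not tested. Leaving out dim probe sets before the fit gave 595 higher genes, with fewer genes tested. Without HBEGF P7 replicate 2 and withdrawn replicate 3 together, a setting chosen after seeing the data, 953 were called (443 higher, 510 lower). With no fold limit 4244 were called (1946 higher, 2298 lower). Averaging withdrawn replicates 1 and 2, also chosen after seeing the data, gave 1656. Centring, quantile normalization, an added 16, another spread model, array weights and the mean of probe sets kept the count within 1.5 times. The replicate block gave 1701 genes; same-numbered arrays of these groups did not deviate together (correlations -0.06, -0.01 and -0.07), so the numbers were not taken as pairs. For MD against HBEGF P1 cultures the block gave 2638 against 2613. Withdrawn against serum gave 746 genes with a block of its same-numbered arrays and 698 with the block in all groups, against 640. Of the 640, 632 and 636 kept their call. Among genes whose withdrawn minus serum difference is printed in the text, the block of same-numbered arrays changed the call of Olig1 alone, which gained it. Among other named genes, Clu and Gap43 lost that call and some gained it, such as Aldh1a2 and Fgf1. These blocks were chosen after seeing the data. Of 185 called genes chosen for naming, 57 lost the call when some 1 array was left out and 107 under some of 17 settings; 0 changed direction. Of 12 uncalled ones, Glul gained a call over the mean of its probe sets and Slc1a2 without HBEGF P7 replicate 3. Where no construction of the setting explains a change, the cause was not tested.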

Other observations

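Oligodendrocyte markers summed to 10882, 7392 and 14961 on the HBEGF P7 arrays and to 21999, 23106 and 28229 on the withdrawn arrays, but as a mean of log2 values the groups overlapped, with 6.43, 6.35 and 6.91 against 6.63, 6.67 and 6.71. The brightest member after withdrawal, the tight junction gene Cldn11, rose by 2.92 (limma adjusted p = 0.0302), a call lost without HBEGF P7 replicate 2 or any 1 withdrawn array, and the myelin gene Mbp fell by 2.86 (adjusted p = 0.028), a call lost in 5 of 6 single-array omissions. Of 21 S100 proteins and annexins 8 rose, 38.1% against 6.29% of all genes, and 0 fell, but 4 rose without HBEGF P7 replicate 2. Of the 9780 probe sets without a gene symbol and 436 with several, 262 together were called higher and 512 lower. Over all probe sets 1403 were called higher and 1563 lower, so falls were more numerous there, unlike in the gene counts.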
